A study of Mus musculus with 15 samples.

Results

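The mevalonate arm of sterol synthesis was followed through 7 listed genes, Acat2, Hmgcs1, Mvk, Pmvk, Mvd, Idi1 and Fdps, which cover the steps from acetyl-CoA to farnesyl diphosphate. The genes were listed by their place in the pathway, with earlier results of these data known. Estimated read counts could be summed for 6 of the 7, out of 52844 genes in all, and all 6 passed the filter on low counts that left 14968 genes for testing. Hmgcs1 was not analysed here. The group mean of each of the 6 genes was highest 120 min after an oral peanut challenge, except that for Mvk the 30 min mean was about as high and the sign of that difference turned in 3 of 7 alternative fits and 9 of 15 omissions of a library. At that time Acat2 reached 2.28 times and Idi1 1.75 times its level in sensitized, unchallenged mice, and Fdps reached 2.33 times its level at 60 min. Pmvk had the smallest difference, 1.16 times the sensitized controls, and did not pass the test. No member passed the test in any comparison of the groups before 120 min.

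The mevalonate pathway builds isoprenoid units from acetyl-CoA. The enzyme of Acat2 joins a pair of acetyl-CoA molecules in the cytosol, that of Hmgcs1 adds a further acetyl group, and a reduction then yields mevalonate. Mevalonate is phosphorylated by mevalonate kinase (Mvk) and phosphomevalonate kinase (Pmvk), and mevalonate diphosphate decarboxylase (Mvd) turns the product into isopentenyl diphosphate. Isopentenyl diphosphate isomerase (Idi1) interconverts this unit with dimethylallyl diphosphate, and farnesyl diphosphate synthase (Fdps) joins the units. Farnesyl diphosphate is the branch point to squalene and cholesterol, to protein prenylation, to ubiquinone and to dolichol. Genes of the pathway are known targets of SREBP2, a membrane-bound transcription factor that is released when sterols in the endoplasmic reticulum are low. The small intestine is known as a tissue that both makes cholesterol and absorbs it from the lumen.

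Polyadenylated RNA was sequenced from jejunal epithelial cells of CC027/GeniUnc mice, an inbred strain of the Collaborative Cross, in 5 groups of 3 libraries, 1 animal number to a library. Challenged mice were sensitized by gavage of 2 mg crude peanut extract once weekly for 3 weeks and 5 mg in week 4, were then challenged by gavage of 12 mg, and were sacrificed 30, 60 or 120 min later. Sensitized controls received the same 2 mg and 5 mg doses and no challenge. PBS mice received PBS at each sensitization dose and no challenge. All groups share the strain and the schedule of sensitization gavages. No group was sensitized with PBS and then challenged, and no challenged group received a gavage without peanut, so a response to peanut in sensitized mice and a response to the gavage cannot be told apart. The cells were shaken off opened jejunum after incubation with EDTA and DTT, so they were a mixed isolate and not a sorted type. Sex and age are not given in the sources used here.

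Estimated counts summed to between 15661513 and 22691349 per library. Between 13.76% and 33.24% of the counts came from mitochondrially encoded genes, with the highest share in 60 min replicate 3. The epithelial label was met by its markers in every library, with Vil1 at 1240 to 2350 CPM, the count scaled to library size, and Epcam at 754 to 1420 CPM. The leukocyte marker Ptprc ranged from 8.11 to 89.1 CPM and the fibroblast marker Col1a1 from 0 to 31.6 CPM. In such bulk libraries fewer cells of a type and less RNA per cell cannot be told apart. CPM was scaled by the trimmed mean of M-values (TMM), and a gene was called where edgeR's quasi-likelihood test passed 0.05 after Benjamini-Hochberg adjustment across the 14968 genes.

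Promoter windows are shown first for Acat2, Mvk, Mvd and Idi1, which run from the first step of the arm to the step before Fdps. SREBP2-driven promoters are known to combine sterol elements with sites for the CCAAT-binding factor NF-Y and the GC-box factor Sp1. RefSeq windows on GRCm38.p6, from 250 bases before to 50 bases after a gene's start, were matched for 5 of the 6 measured genes. Fdps, the last gene of the arm, had none. The windows lie at chr17:12960676-12960975 on the minus strand (Acat2), chr5:114444019-114444318 on the plus strand (Mvk), chr8:122443373-122443672 on the minus strand (Mvd) and chr13:8885356-8885655 on the plus strand (Idi1), and are written 5′ to 3′ in the direction of the gene. Capitals mark CCAAT or GGGCGG on either strand, so that ATTGG and CCGCCC also stand in capitals.
Acat2: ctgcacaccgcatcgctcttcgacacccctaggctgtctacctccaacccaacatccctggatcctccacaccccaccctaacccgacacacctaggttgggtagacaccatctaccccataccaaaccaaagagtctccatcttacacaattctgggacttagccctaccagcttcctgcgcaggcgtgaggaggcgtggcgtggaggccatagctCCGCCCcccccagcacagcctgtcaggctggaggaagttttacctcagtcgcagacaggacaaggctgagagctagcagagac
Mvk: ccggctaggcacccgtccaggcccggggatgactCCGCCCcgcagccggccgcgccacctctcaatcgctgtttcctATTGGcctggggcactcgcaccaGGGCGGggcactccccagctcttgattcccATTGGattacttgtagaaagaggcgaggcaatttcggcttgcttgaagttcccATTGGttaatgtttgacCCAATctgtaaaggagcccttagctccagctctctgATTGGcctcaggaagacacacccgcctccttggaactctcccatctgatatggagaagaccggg
Mvd: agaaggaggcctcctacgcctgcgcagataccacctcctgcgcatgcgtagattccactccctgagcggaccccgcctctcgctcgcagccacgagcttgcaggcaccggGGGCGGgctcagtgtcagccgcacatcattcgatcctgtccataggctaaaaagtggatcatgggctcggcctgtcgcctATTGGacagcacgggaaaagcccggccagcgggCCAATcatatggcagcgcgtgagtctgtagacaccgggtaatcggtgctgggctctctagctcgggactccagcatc
Idi1: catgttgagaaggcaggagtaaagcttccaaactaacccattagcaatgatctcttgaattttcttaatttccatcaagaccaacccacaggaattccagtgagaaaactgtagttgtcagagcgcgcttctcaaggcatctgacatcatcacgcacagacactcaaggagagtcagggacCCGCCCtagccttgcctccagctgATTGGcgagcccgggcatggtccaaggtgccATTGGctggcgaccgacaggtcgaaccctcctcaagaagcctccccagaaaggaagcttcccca
The Mvk window held 5 CCAAT matches, the Mvd and Idi1 windows held 2 each, and the Acat2 window held 0. GGGCGG matched 2 times in the Mvk window and 1 time in each of the other 3 windows shown. For Pmvk, not shown, the window at chr3:89454291-89454590 held 1 CCAAT and 0 GGGCGG matches. The Pmvk window at chr3:89459321-89459620 held 0 of each. Over all 32851 promoter windows of the same length, 37.4% held CCAAT and 35.7% held GGGCGG, so single matches of these short motifs were common. The sterol element TCACNCCAC, searched on both strands, was in 1.24% of all windows. It matched 1 time in the window of Hmgcs1, which also held 4 CCAAT and 3 GGGCGG matches, and in none of the windows of the 5 measured members. These letter matches describe the windows alone.

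Acat2, which opens the pathway, had the largest difference of the arm from the sensitized controls at 120 min. The gene (ENSMUSG00000023832.14) lies at chr17:12942890-12960747 on the minus strand of GRCm38, the build of all gene positions here, which follow GENCODE M21. Its level was 40.2, 29.7 and 64.5 CPM in the 3 libraries at 120 min, against 21.2, 18.3 and 19.5 CPM in sensitized controls. The groups did not overlap, and 13.3% of all genes tested were likewise higher at 120 min without overlap. The highest library at 120 min, replicate 3, held more than 2 times the lowest, replicate 2. The log2 fold change was 1.19 ± 0.238 (SE), with an edgeR adjusted p of 0.029. At 30 min Acat2 had 22.3, 37.6 and 27.9 CPM, and at 60 min it had 23.9, 26.8 and 23.6 CPM. PBS mice had 25.0, 29.0 and 22.1 CPM, above every sensitized control. The order of group means was 120 min, 30 min, PBS, 60 min and sensitized controls, and each step down to the 60 min mean was smaller than the larger SD of the groups it separated. The last step was larger, with 24.7 ± 1.79 CPM at 60 min and 19.6 ± 1.46 CPM in sensitized controls (SD, n = 3 each), but that comparison had a log2 fold change of 0.33 and an edgeR adjusted p of 0.585.

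**Figure D1:**
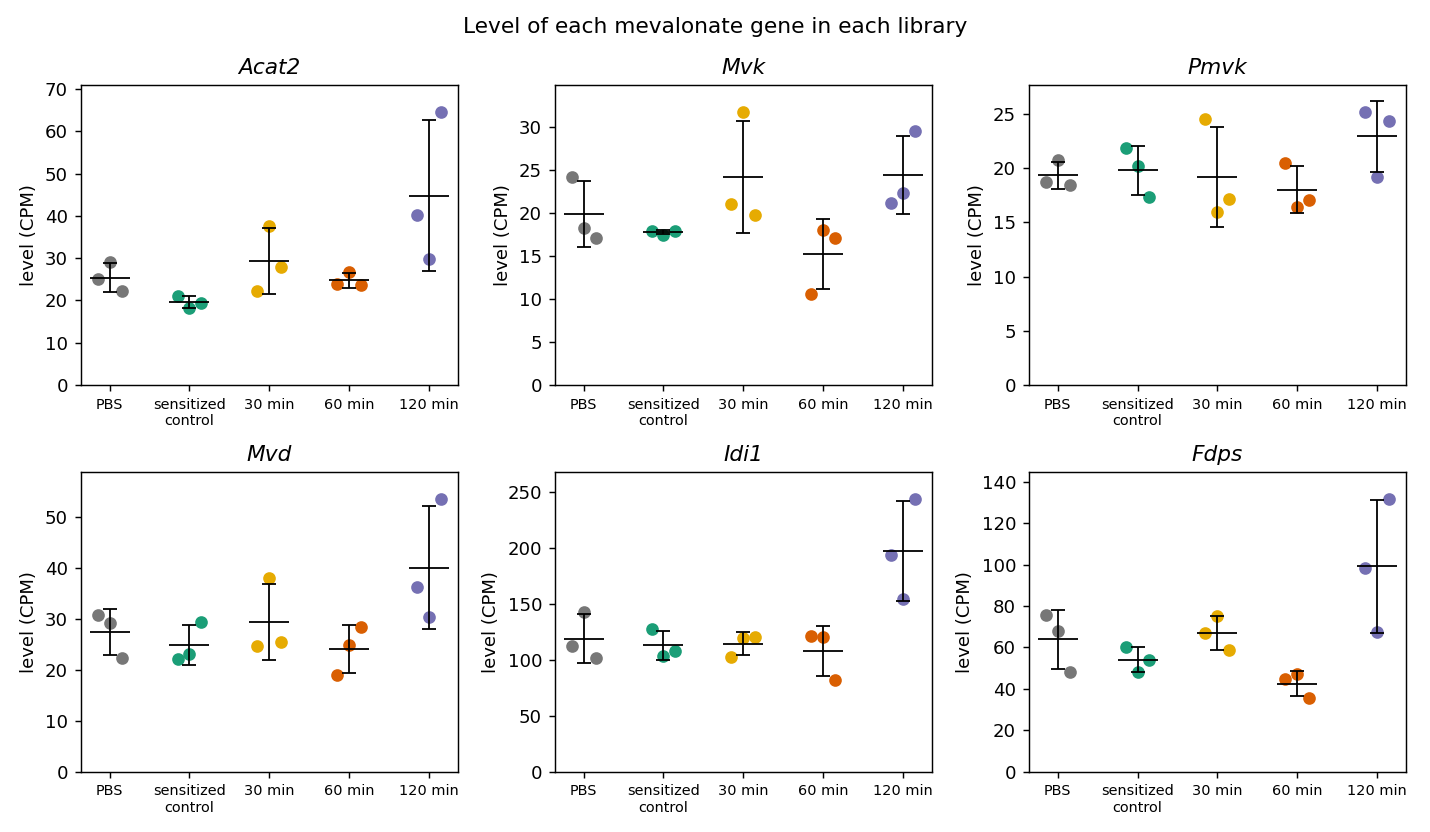
Level in CPM (vertical axes, each from 0) of the 6 measured mevalonate genes in the 15 libraries, by group (horizontal axes). Points are libraries, the long dash is the group mean and the bars are SD (n = 3). At 120 min Idi1 lies between 154 and 244 CPM, above every other library, whereas Pmvk lies between 19.2 and 25.1 CPM and overlaps the other groups.

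Neither kinase of the middle of the arm passed the test. Mvk (ENSMUSG00000041939.14) lies at chr5:114444269-114460591 on the plus strand. Mvk had 21.2, 22.4 and 29.6 CPM at 120 min, against 17.9, 17.5 and 17.9 CPM in sensitized controls. These groups did not overlap (120 min higher, as in 13.3% of all genes), and the controls lay within 1 CPM of each other. The log2 fold change of 0.46 ± 0.221 (SE) had an edgeR adjusted p of 0.298. Mvk was as high at 30 min, with 21.1, 31.7 and 19.8 CPM, and lowest at 60 min, with 10.6, 18.1 and 17.1 CPM. PBS mice had 24.2, 18.3 and 17.1 CPM of Mvk. The group means of Mvk ran from 24.4 CPM at 120 min over 24.2 CPM at 30 min to 15.3 CPM at 60 min, and no neighbours in that order differed by more than their larger SD.

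Pmvk was the steadiest member. The gene (ENSMUSG00000027952.16) lies at chr3:89454541-89469013 on the plus strand. It had 25.1, 19.2 and 24.4 CPM at 120 min, against 21.8, 20.2 and 17.3 CPM in sensitized controls, and the groups overlapped. Its log2 fold change was 0.21 ± 0.172 (SE), with an edgeR adjusted p of 0.561. Its level was 24.5, 15.9 and 17.2 CPM at 30 min, 20.5, 16.4 and 17.1 CPM at 60 min, and 18.7, 20.8 and 18.4 CPM in PBS mice. No neighbours in the order of its 5 group means, from 120 min at the top to 60 min at the bottom, were apart by more than the larger SD.

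Mvd, the decarboxylase gene (ENSMUSG00000006517.5), lies at chr8:122433601-122443422 on the minus strand. Mvd had 36.3, 30.2 and 53.4 CPM at 120 min, against 22.1, 23.1 and 29.4 CPM in sensitized controls. The groups did not overlap (120 min higher, as in 13.3% of all genes), but 120 min replicate 2 lay close to sensitized control replicate 3. The log2 fold change was 0.69 ± 0.229 (SE), and Mvd did not pass the test (edgeR adjusted p = 0.141). Mvd had 24.5, 37.9 and 25.4 CPM at 30 min, 19.0, 24.8 and 28.4 CPM at 60 min, and 30.7, 29.2 and 22.3 CPM in PBS mice. The neighbouring group means, from 40.0 CPM at 120 min down to 24.1 CPM at 60 min, were apart by less than the larger SD at every step.

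Idi1, the isomerase, rose at 120 min. The gene (ENSMUSG00000058258.14) lies at chr13:8885501-8892451 on the plus strand. It had 194, 154 and 244 CPM at 120 min, against 128, 103 and 108 CPM in sensitized controls. All 3 libraries at 120 min stood above the other 12 libraries of the series. The share of all genes with such a separation was not counted. Against sensitized controls alone, 13.3% of all genes were higher at 120 min without overlap. The log2 fold change against sensitized controls was 0.81 ± 0.186 (SE), just inside the threshold with an edgeR adjusted p of 0.0478. The other groups overlapped one another, with 102, 119.8 and 121 CPM at 30 min, 121, 120.0 and 81.6 CPM at 60 min, and 113, 143 and 101 CPM in PBS mice. The mean at 120 min, 197 ± 44.7 CPM, was above the next mean, 119 ± 21.6 CPM in PBS mice (SD, n = 3 each), by more than the larger SD, and no other neighbours in the order were.

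Fdps (ENSMUSG00000059743.12), whose enzyme makes farnesyl diphosphate, lies at chr3:89093588-89101959 on the minus strand. Fdps had 98.4, 67.5 and 132 CPM at 120 min, against 60.1, 48.0 and 54.0 CPM in sensitized controls. The groups did not overlap (120 min higher, as in 13.3% of all genes). The log2 fold change of 0.88 ± 0.215 (SE) fell just outside the threshold (edgeR adjusted p = 0.0562). The lowest levels of Fdps were at 60 min, with 44.9, 47.1 and 35.8 CPM, all below every other library of the series. How many genes had such a separation was not counted. Against sensitized controls alone, 9.14% of all genes were lower at 60 min without overlap. At 30 min Fdps had 67.1, 75.4 and 58.9 CPM, and PBS mice had 75.7, 68.0 and 48.1 CPM, so 120 min replicate 2 was no higher than 2 PBS libraries. The mean at 60 min, 42.6 ± 5.97 CPM, was below that of sensitized controls, 54.0 ± 6.04 CPM (SD, n = 3 each), by more than the larger SD, and the log2 fold change of -0.34 at 60 min against sensitized controls had an edgeR adjusted p of 0.532.

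Against sensitized controls, 120 min thus gave 2 called members, Acat2 and Idi1, both higher, where 1.26% of all genes tested were called. All 6 log2 fold changes were positive, with a median of 0.75 beside a median of -0.01 over all genes. In 5 of the 6 members every library at 120 min was above every sensitized control, which held for 13.3% of all genes. The calls lay near the threshold. Acat2 lost its call without any 1 of the 3 sensitized controls (adjusted p 0.0851, 0.118 and 0.145) and without 120 min replicate 1 (0.087) or replicate 3 (0.0991), while its log2 fold change stayed between 0.83 and 1.40. Idi1 lost its call without any 1 of 11 of the 15 libraries, with log2 fold changes between 0.62 and 0.94 over the 15 omissions. Fdps passed the test without 120 min replicate 2, with a log2 fold change of 1.08 and an edgeR adjusted p of 0.0179.

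**Figure D2:**
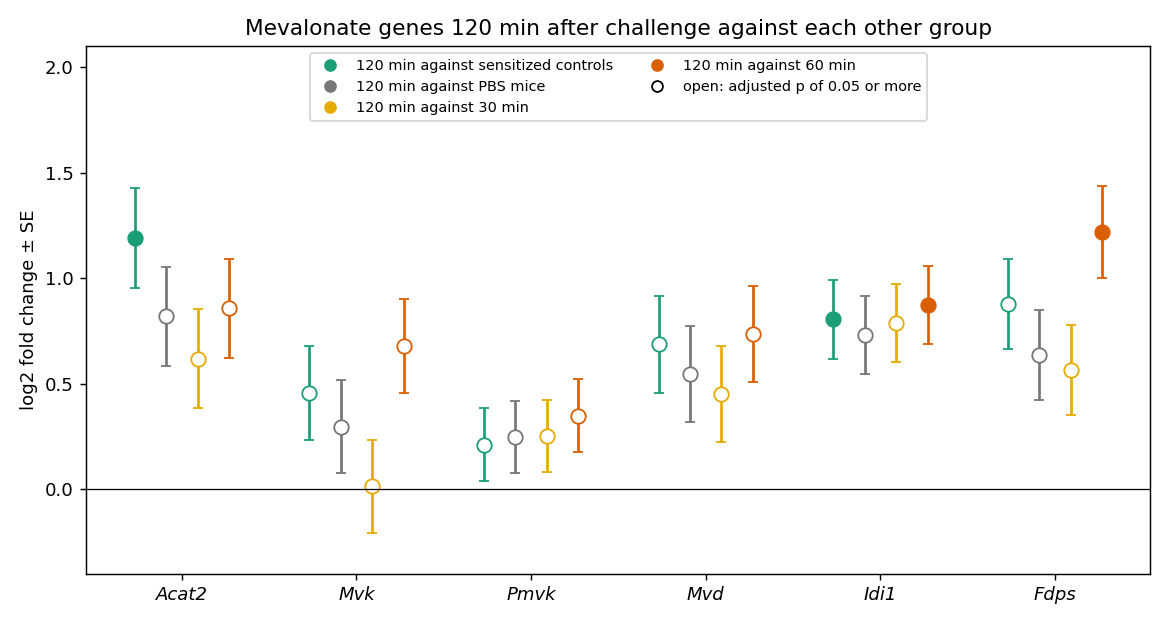
Log2 fold change with its SE (vertical axis) of each mevalonate gene (horizontal axis) at 120 min against each of the other 4 groups. Filled points passed an adjusted p of 0.05 (Acat2 and Idi1 against sensitized controls, Idi1 and Fdps against 60 min). The 24 estimates run from 0.01 for Mvk against 30 min, which turned to -0.01 without mitochondrially encoded genes and to -0.04 with a transcript length offset, to 1.22 for Fdps against 60 min.

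Markers of other cells in the isolate moved over the same comparison. The summed level of the 6 Paneth cell markers was 1790 to 3610 CPM at 120 min, against 3880 to 4660 CPM in sensitized controls. The 7 goblet cell markers summed to 7480 to 8230 CPM at 120 min and 9820 to 16000 CPM in sensitized controls. Of the leukocyte lists, the 8 T and intraepithelial lymphocyte markers summed to 27.4 to 76.8 CPM at 120 min and 78.7 to 290 CPM in sensitized controls, and the 5 B and plasma cell markers to 21.9 to 56.9 CPM at 120 min and 119 to 210 CPM in sensitized controls. No marker of these 4 lists was at 0 in every library of either group, and none of those tested was called. The 11 enterocyte markers overlapped, at 18800 to 28300 CPM at 120 min and 17000 to 24200 CPM in sensitized controls. The 6 macrophage and dendritic markers also overlapped, at 14.6 to 26.6 CPM at 120 min and 17.4 to 34.1 CPM in sensitized controls. Mast cell markers were lower without overlap, at 19.0 to 25.2 CPM at 120 min and 27.8 to 46.7 CPM in sensitized controls. So were the stromal and endothelial and the erythroid lists. The villus tip, crypt and proliferation, enteroendocrine, tuft and smooth muscle lists overlapped. The mitochondrially encoded share was 13.76% to 16.6% at 120 min and 17.15% to 26.73% in sensitized controls. With mitochondrially encoded genes left out of the counts, the log2 fold changes were 1.18 for Acat2 and 0.79 for Idi1, and both remained called (edgeR adjusted p = 0.0273 and 0.0491). The part of the other cell types in the mevalonate differences was not tested.

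Fdps and Idi1 also rose at 120 min against 60 min, between the last pair of time points. In this comparison Fdps had a log2 fold change of 1.22 ± 0.216 (SE) with an edgeR adjusted p of 0.0235, and Idi1 had 0.87 ± 0.186 with 0.0386. These 2 of 6 members were called beside 1.12% of all genes. Acat2 (log2 fold change 0.86, edgeR adjusted p 0.0809), Mvd (0.74, 0.113) and Mvk (0.68, 0.123) did not pass, and Pmvk again had the smallest value, 0.35 (0.276). In 5 of 6 members the groups did not overlap, with 120 min above 60 min, where 10.2% of all genes did so. Fdps lost its call without 60 min replicate 2 or 3 or without 120 min replicate 1 or 3 (adjusted p from 0.0694 to 0.123), and its log2 fold change stayed between 0.95 and 1.40. Idi1 lost its call without any 1 of 9 of the 15 libraries, with log2 fold changes from 0.68 to 0.99. The summed Paneth cell markers were 1790 to 3610 CPM at 120 min and 6610 to 7710 CPM at 60 min, and the B and plasma cell markers were 21.9 to 56.9 CPM at 120 min and 190 to 224 CPM at 60 min. Of 5 Paneth cell markers tested, 4 were called lower at 120 min against 60 min (list median log2 fold change -1.47). Of 11 crypt and proliferation markers, 1 was called lower, the stem cell marker Lgr5 (log2 fold change -1.09 ± 0.246 (SE), edgeR adjusted p 0.0476). In that list 4 log2 fold changes were positive and 7 negative, with a median of -0.20. Whether these shifts bear on Fdps and Idi1 was not tested.

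Against 30 min and against PBS mice no member passed at 120 min. At 120 min against 30 min, 1.01% of all genes were called and 0 of 6 members. The count at an unadjusted p under 0.05 was 3 of 6 members, beside 17.7% of all genes. DESeq2 called 1 member (Idi1), beside 838 of 13791 genes, and limma-voom called 0. Idi1 came closest, with a log2 fold change of 0.79 ± 0.186 (SE) and an edgeR adjusted p of 0.0544, and was the 1 member whose groups did not overlap, beside 12.1% of all genes. Mvk had a log2 fold change of 0.01 ± 0.219 (SE) in this comparison, which turned to -0.01 without mitochondrially encoded genes. At 120 min against PBS mice, 1.18% of all genes were called and again 0 of 6 members. At an unadjusted p under 0.05 there were 4 of 6, beside 18.8% of all genes. DESeq2 called 2 members (Acat2 and Idi1), beside 966 of 14081 genes, and limma-voom called 0. Acat2 (log2 fold change 0.82 ± 0.235, edgeR adjusted p 0.0891) and Idi1 (0.73 ± 0.186, 0.0647) were the 2 members above every PBS library, which held for 12.3% of all genes. The comparisons with 120 min share those 3 libraries, so their values are not independent of one another.

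Sensitization alone and the early times gave no calls in the arm. Sensitized controls against PBS mice had 0 of 6 members and 0% of all genes called by edgeR, and no member at an unadjusted p under 0.05 (1.42% of all genes), with 0 members called by DESeq2 or limma-voom. The members' median log2 fold change was -0.15, and Acat2 was the 1 member whose sensitized controls all lay below the PBS libraries (log2 fold change -0.37, edgeR adjusted p 1.0), as 4.1% of all genes did. At 30 min against sensitized controls, 0 of 6 members and 0% of all genes were called. Acat2 alone had an unadjusted p under 0.05 (log2 fold change 0.57 ± 0.237, unadjusted p = 0.0289, edgeR adjusted p = 0.941), beside 5.04% of all genes. Acat2 and Mvk did not overlap with the controls, which 6.49% of all genes also did not, upwards. DESeq2 and limma-voom called 0 members at 30 min.

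At 60 min against sensitized controls, 0 of 6 members were called beside 0.00668% of all genes, with 0 at an unadjusted p under 0.05 (12.6% of all genes) and 0 by DESeq2 or limma-voom. The groups did not overlap for Acat2, which was higher at 60 min as 9.37% of all genes were, and for Fdps, which was lower as 9.14% of all genes were. Between 60 and 30 min, 0 of 6 members and 0% of all genes were called by edgeR, and 0 members by DESeq2 or limma-voom. All 6 log2 fold changes were negative (Pmvk turned to 0.13 without 30 min replicate 1 and Idi1 to 0.08 without 60 min replicate 3), with a median of -0.26 beside -0.02 over all genes. Mvk (log2 fold change -0.66 ± 0.223, unadjusted p = 0.00898) and Fdps (-0.66 ± 0.215, unadjusted p = 0.00811) each had an edgeR adjusted p of 0.863 and were the 2 members with all 60 min libraries below all 30 min libraries, as 3.75% of all genes were.

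Within some groups, though not at 60 min, the members were often high or low in the same library. At 120 min, replicate 3 was the highest library for 5 of the 6 members and replicate 2 the lowest for 5 of the 6. Averaged over the 6 members, the deviation from each gene's own mean log2 CPM was 0.45, 0.13 and 0.85 in the 3 libraries at 120 min. The next highest library of the series was 30 min replicate 2, at 0.25, so it lay above 120 min replicate 2. PBS replicate 3 was the lowest PBS library for all 6 members, with a mean deviation of -0.27 against 0.06 and 0.07 in the other PBS libraries. At 60 min replicates 1, 2 and 3 were the highest for 2, 3 and 1 members and the lowest for 2, 1 and 3. The mean deviations were -0.35, -0.17 and -0.33 at 60 min, and -0.12, -0.27 and -0.19 in sensitized controls.

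**Figure D3:**
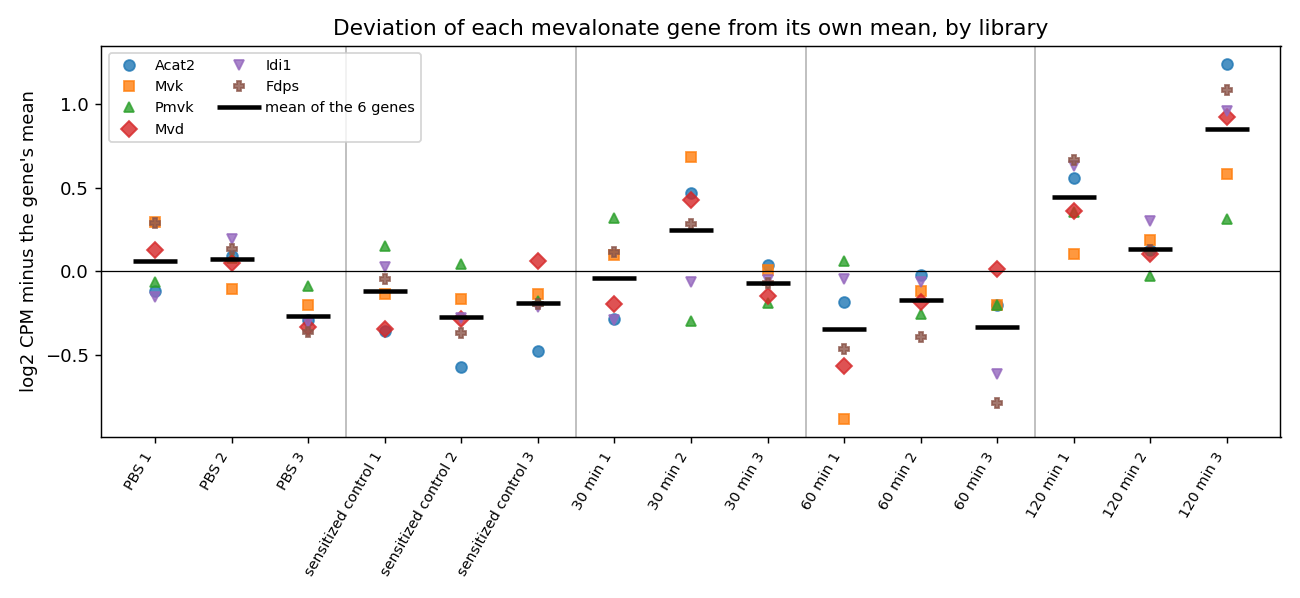
Log2 CPM minus the gene's mean over the 15 libraries (vertical axis) for the 6 mevalonate genes in each library (horizontal axis, replicates named by number within a group). Symbols are genes and black dashes the mean of the 6. At 120 min the means are 0.45, 0.13 and 0.85, and 30 min replicate 2 reaches 0.25.

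Levels between genes were compared per length, in TPM, the deposited length-scaled unit. At 120 min Fdps averaged 87.4 ± 27.7 TPM and Idi1 85.9 ± 19.4 TPM, against 41.5 ± 7.47 TPM of Fdps and 43.3 ± 9.06 TPM of Idi1 in sensitized controls (SD, n = 3 each). The other 4 members were lower in every group. Acat2 averaged 23.0 ± 9.01 TPM, Mvd 22.4 ± 6.31 TPM, Pmvk 22.1 ± 3.61 TPM and Mvk 15.6 ± 3.12 TPM at 120 min (SD, n = 3). In sensitized controls Pmvk averaged 16.6 ± 4.28 TPM, Mvd 11.8 ± 0.702 TPM, Mvk 9.54 ± 1.60 TPM and Acat2 8.72 ± 1.42 TPM (SD, n = 3). At 120 min Acat2, Mvd and Pmvk were within their SD of one another, and in sensitized controls so were Acat2 and Mvk. Mitochondrially encoded transcripts took 33.68% to 61.46% of TPM, which lowers every other TPM in a library.

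The reads of the arm came mainly from 1 transcript per gene. The share of the gene's TPM in the leading transcript averaged 99.0% for Mvd, 94.9% for Idi1, 92.5% for Acat2 and 88.2% for Fdps over the 15 libraries. It averaged 73.7% for Pmvk and 66.1% for Mvk. At 120 min the leading transcripts averaged 21.4 ± 8.45 TPM for Acat2, 83.7 ± 19.2 TPM for Idi1 and 79.5 ± 26.2 TPM for Fdps, against 8.38 ± 1.34 TPM for Acat2, 41.2 ± 8.14 TPM for Idi1 and 36.9 ± 6.35 TPM for Fdps in sensitized controls (SD, n = 3 each). Near copies of the members elsewhere in the genome took few reads. Acat3, which matches Acat2 over 1477 bases at 97.7% identity, averaged 0.157 CPM, and Gm35570, the copy of Idi1 with the most reads, averaged 0.637 CPM. The 5 copies of Fdps averaged at most 0.0435 CPM, in Gm43738. Reads shared with such copies could be split between them by the quantification, so the values of Acat2, Idi1 and Fdps carry that uncertainty. Idi1 also overlaps the antisense gene Gm48574 and Mvd lies within Gm20388.

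Genes of the next section of the pathway rose in the same comparison. Of 12 genes from squalene to cholesterol, 6 were called higher at 120 min against sensitized controls, beside 0.728% of all genes. All 12 log2 fold changes were positive, with a median of 0.82. Fdft1, squalene synthase, which draws on the product of Fdps, averaged 151 ± 12.7 CPM at 120 min and 80.2 ± 2.90 CPM in sensitized controls (SD, n = 3 each), a log2 fold change of 0.91 ± 0.126 (SE) with an edgeR adjusted p of 0.00514. Lss, lanosterol synthase, had a log2 fold change of 1.03 (edgeR adjusted p = 0.017) and Cyp51, lanosterol demethylase, had 0.97 (0.00692). Sqle, Msmo1 and Nsdhl were the other 3 that rose. At 120 min against 60 min, 5 of the 12 were called higher, beside 0.588% of all genes, and the list median was 0.65.

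The other lists hold genes that control, feed or leave the pathway. The 10 genes of SREBP2 control and sterol uptake had a median log2 fold change of 0.03 at 120 min against sensitized controls. Of these, 3 were called higher, beside 0.728% of all genes. Insig1, which retains the SREBP complex in the endoplasmic reticulum and is itself a known target of SREBP, was among them, with 221 ± 10.6 CPM at 120 min and 128 ± 14.1 CPM in sensitized controls (SD, n = 3 each; log2 fold change 0.79, edgeR adjusted p 0.0478). Srebf2, which encodes SREBP2, had a log2 fold change of 0.42 ± 0.124 (SE) and did not pass. None of the 13 genes on the branches from farnesyl diphosphate to prenylation, ubiquinone and dolichol passed (median 0.18). Nor did any of 4 genes of acetyl-CoA supply (0.23), 5 of mitochondrial ketogenesis (-0.10) or 8 of the LXR and sterol export list (0.04). Of 10 genes of fatty acid synthesis, Fasn, fatty acid synthase, rose (log2 fold change 0.85, edgeR adjusted p 0.0378) and the median was 0.33. No gene of these 8 lists fell.

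**Figure D4:**
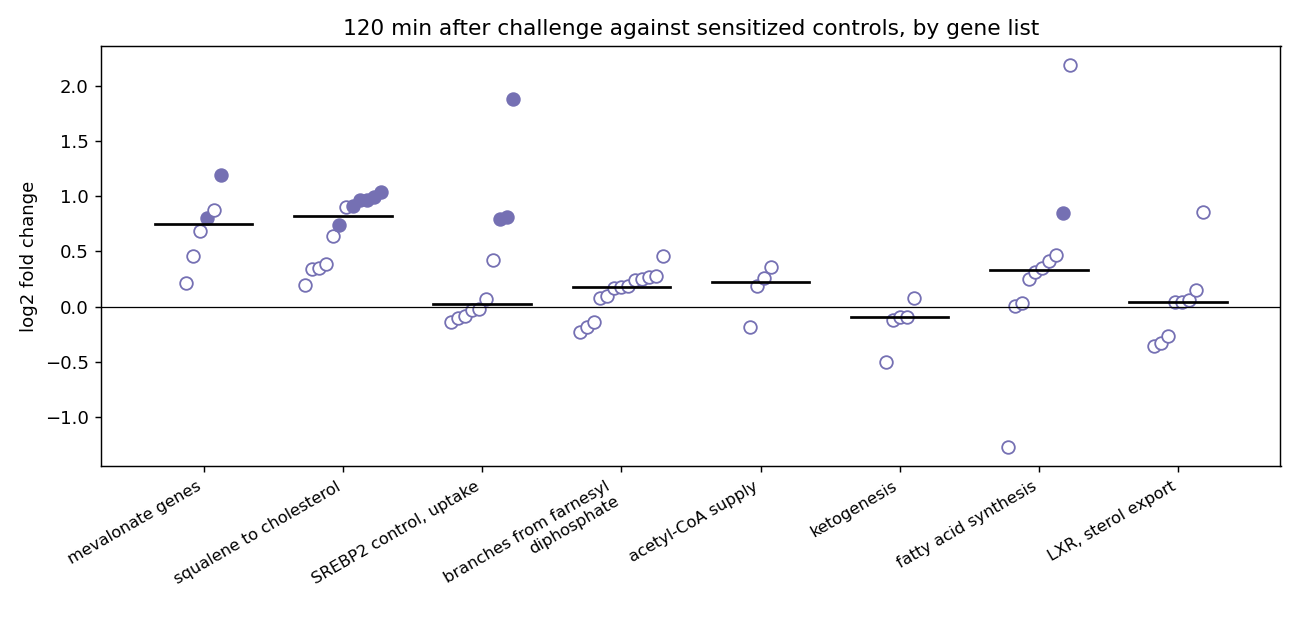
Log2 fold change at 120 min against sensitized controls (vertical axis) of each tested gene, grouped by list (horizontal axis). Filled points passed an adjusted p of 0.05 and black lines are list medians. The medians are 0.75 for the 6 mevalonate genes and 0.82 for the 12 squalene to cholesterol genes, and between -0.10 and 0.33 for the other 6 lists.

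The genes whose pattern was most like the mean of the 6 members were ranked by the root mean square (RMS) difference of centred log2 CPM over the 15 libraries, among genes with a mean of at least 10 CPM. Nsdhl, a sterol dehydrogenase of the squalene to cholesterol section, was nearest, at an RMS difference of 0.07, where a gene with no variation would be at 0.31. Nsdhl averaged 53.7 ± 13.5 CPM at 120 min and 32.2 ± 2.17 CPM in sensitized controls (SD, n = 3 each). The next were Tubb4b, a beta-tubulin, at 0.13, and Psmd12, a subunit of the proteasome's regulatory particle, and Gsr, glutathione reductase, both at 0.14. Gm43305, Sept5, Hsd17b12, Psmd7, Cyp51 and Fam133b followed, at 0.15 to 0.16. Each member was set against the mean of the other 5. Mvd was nearest, at 0.19, then Fdps at 0.21, Idi1 at 0.22, Acat2 at 0.24 and Mvk at 0.28. Pmvk was farthest, at 0.34. From the mean of all 6, which includes Pmvk itself, it lay at 0.28, below the 0.31 of a gene with no variation. Of the ranked genes that were not members, 1404 lay closer to that mean than Pmvk. The number was 364 for Mvk, 95 for Acat2, 35 for Idi1, 27 for Fdps and 7 for Mvd. These values describe likeness over libraries that share groups and depth.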

How the data were processed

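Jejunal epithelial RNA of 15 mice, in 5 groups of 3, was read in 151 bp paired ends, per the labels. Adapters were handled with cutadapt 1.18 and transcripts quantified with Salmon 1.2.1 on mm10, per the submitters' processing notes. The authors deposited, per library, estimated counts and TPM for each transcript. No source used here names the annotation release. Transcripts were matched to GENCODE M21 (137943 of 139058), estimated counts and TPM were summed per gene, and counts were rounded to whole numbers. Unmatched transcripts held 0.374% to 0.602% of counts.

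One edgeR 4.0.16 quasi-likelihood fit (TMM, filterByExpr, robust) covered all 15 libraries, with 1 mean for each group (10 residual degrees of freedom), and gave 8 comparisons, with Benjamini-Hochberg adjustment over 14968 genes. The common biological coefficient of variation was 0.26. The script was tested on simulated counts. Alternatives were other size factors, omission of mitochondrially encoded genes, no filter, DESeq2 1.42.0, limma-voom, a transcript length offset, fits of the compared groups alone, and omission of each library. Near copies were sought with BLAST+ 2.17.0, at 95% identity over at least 300 bases.

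The members and gene lists were chosen with earlier results of these data known. All measured members were named. Beyond them, the text takes members of the lists that were called, a few others per list, and the 10 genes of most similar pattern. Some genes that this takes in are not reported here and stay in the counts. The labels do not say whether mice shared a litter or cage, so p-values measure the spread between these libraries.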

Additional observations from a re-analysis of the deposited data

Results flagged for a closer look

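The difference between 60 and 120 min was itself tested for each member, and 2 of 6 passed, beside 1.12% of all genes. It is the comparison of 120 min with 60 min given above and no further test. Relative to the same sensitized controls, Fdps was at a log2 fold change of 0.88 at 120 min and -0.34 at 60 min, a difference of 1.22 (edgeR adjusted p = 0.0235). Idi1 was at 0.81 at 120 min and -0.07 at 60 min, a difference of 0.87 (edgeR adjusted p = 0.0386). Every library at 120 min was above every library at 60 min for both genes, as for 10.2% of all genes. Fdps lost its call without any 1 of 4 of the 15 libraries, and Idi1 without any 1 of 9. Both lost it with these 2 groups fitted alone (edgeR adjusted p 0.131 for Fdps and 0.186 for Idi1).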

How the results depend on the processing

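No paired analysis was possible because the titles give every mouse its own number and the replicate numbers only name libraries. Of 1056 recomputed fold changes (6 members, 8 comparisons, 7 alternatives and 15 omitted libraries), 37 lost and 15 gained a call. Only a member called in the main fit could lose a call. All 37 losses thus fell on the 2 calls at 120 min against sensitized controls and the 2 against 60 min, not on the 1056 evenly. None that was called changed sign, and 30 that were not called did. At 120 min against sensitized controls the 2 called members became 3 with DESeq2 (Fdps added), 1 with limma-voom, 0 with a transcript length offset and 0 with these 2 groups fitted alone, and 0 to 3 over omitted libraries. Against 60 min the 2 became 4 with DESeq2, 1 with the length offset and 0 with the 2 groups alone, and 0 to 3 over omitted libraries. Against 30 min the 0 became 1 with no filter and 1 with DESeq2 (0 to 1 over omissions), and against PBS mice 1 and 2 (0 to 2). Omissions left 0 members called in the other 4 comparisons.

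Counts of all genes called moved more. DESeq2 called 6 genes for sensitized controls against PBS mice, 6 at 30 min, 189 at 60 min and 815 at 120 min against sensitized controls, 5 at 60 against 30 min, and 838, 941 and 966 at 120 min against 30 min, 60 min and PBS mice. The length offset gave 0 at 60 min and 34 at 120 min against sensitized controls, and 32, 46 and 44 at 120 min against 30 min, 60 min and PBS mice. With no filter the counts were 49 at 60 min against sensitized controls, 279 at 120 against 60 min and 319 at 120 min against PBS mice. The compared groups alone gave 0 at 60 min against sensitized controls, 4 at 120 against 30 min and 0 at 120 against 60 min. Over omitted libraries the counts ran from 0 to 1 at 30 min, 0 to 385 at 60 min and 7 to 344 at 120 min against sensitized controls, 0 to 1 at 60 against 30 min, and 4 to 241, 0 to 1151 and 5 to 380 at 120 min against 30 min, 60 min and PBS mice. Omissions left 0 genes called for sensitized controls against PBS mice. The causes were not tested. A group reduced to 2 libraries borrows its spread from the other groups.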
